A study of Homo sapiens with 6 samples.

Results

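The unmodified side of a microRNA experiment in 22RV1 cells is described here: the genes that the control line itself expressed. 22RV1 is an established human prostate cancer line that grew out of a xenograft which had relapsed after castration of the host mouse. Per the labels, the control cells had been made with the lentiviral control vector pLemiR-RFP, were kept in RPMI medium with fetal bovine serum and puromycin, and were labelled SPINK1 positive. Their RNA filled the Cy3 channel of 6 Agilent 2-colour arrays. The Cy5 channel held the line carrying pLemiR-338-5p on 3 arrays (replicates 1, 2 and 3) and the line carrying pLemiR-421 on the other 3 (a sample named a pool, and replicates 1 and 2). Cy5 was not used, and the arrays are named below by the miRNA line they carried in Cy5. A gene was counted as expressed when at least 1 of its probes was well above background in Cy3 on all 6 arrays. This held for 14084 of 23074 gene symbols with a probe, which is 61.0% and the background for every count below.

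The level of a gene is the log2 of its spot intensity minus the local background, for its brightest detected probe, with the SD over the 6 arrays. A step of 1 on this scale is a doubling of signal. The median gene stood at 7.64 and the middle 50% of genes lay between 5.81 and 9.55. Signal depends on the probe as well as on the RNA, so ranks describe probe signal and are not amounts of RNA, and no test was made between genes. A gene called not detected was not well above background, which does not show that it was absent. Whether the Cy3 RNA of all arrays came from a single culture is not stated in the labels, so the SD and every p-value measure the spread between arrays, which may be technical.

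Prostate luminal cells are the secretory cells of the gland. Androgen acts on them through its nuclear receptor and, with the help of FOXA1 and HOXB13, switches on genes such as the kallikrein proteases. Some prostate tumours that lack ETS gene fusions instead make SPINK1, a secreted trypsin inhibitor of the pancreas and gut, and a gut- and liver-like set of genes can accompany it.

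The arrays agreed closely in Cy3. Between 44.3% and 47.9% of gene spots were well above background, with all 3 miR-338-5p arrays (from 47.3%) above all 3 miR-421 arrays (up to 44.4%). No gene spot was saturated. Pearson's r over the detected probes was 0.9976 to 0.9978 among the miR-338-5p arrays, 0.9918 to 0.9946 among the miR-421 arrays and 0.9914 to 0.9963 between both sets. Probes share an array and are not replicates, so these values describe the arrays. The median SD of a gene was 0.108, and 91.5% of genes had an SD under 0.25. The pool array stood apart for a few genes, which are given at the end.

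Because the ranking rests on the probes, the first 30 bases of the probes of 3 genes that the account turns on are shown, 5′ to 3′, in lower case.
NMB: gggtcaccagaaatatcgctgatgcagaca
HOXB13: tcccacactctgctatcagaaacttaaact
KLK3: accctcagatttgatgatttcctagtagaa
Each carried no Alu motif, and their G+C content was 45.0% for NMB, 38.3% for HOXB13 and 36.7% for KLK3. The NMB probe lies at chr15:85198402-85198461 (minus strand), HOXB13 at chr17:46802144-46802203 (minus) and KLK3 at chr19:51363961-51364020 (plus), all on hg19 per the file headers. Exon and UTR annotation was not used here.

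The brightest gene of the control line was NMB, which encodes the peptide neuromedin B. Its level was 16.27 ± 0.19 (SD, n = 6), with a lowest array of 15.97, a median of 16.29 and a highest of 16.53. The ribosome filled much of the rest of the top: 9 of the first 20 genes encode ribosomal proteins, from RPL6 at 15.94 ± 0.24 to RPL19 at 15.41 ± 0.14. Among 82 symbols of cytosolic ribosomal protein genes and their close copies, 82 were detected, with a median of 14.95, and 45 stood in the first 100 genes. The exceptions at the bottom were RPL3L, the muscle copy of RPL3, at 5.14 and RPL27A at 5.50. HMGN2, a nucleosome-binding protein, stood at 15.80 ± 0.15 and TUBA1B, an alpha tubulin, at 15.53 ± 0.28. Ribosomal protein genes and MTRNR2L1 (15.43 ± 0.29) have near-identical copies in the genome, so their signals cannot be assigned to 1 copy with certainty. In addition, 718 detected probes listed transcripts of several genes. Among them were the brightest probes of HMGN2 and, below, of TONSL, ZNF865, AS3MT, HBG1 and UGT2B15. Signals of such probes cannot be assigned to 1 gene with certainty either.

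Several other names near the top came from probes with repeat sequence. SLC66A1, ZNF865, GPR155, CC2D1A, FAM74A4 and AS3MT, 6 of the first 20 genes, stood there by a probe holding CCAGCCTGG or GGCTGAGGC, 9-base runs of the Alu repeat, searched on both strands. TONSL, a DNA repair gene at 15.39 ± 0.25, held no such run, but a dimmer detected probe of it read 5.64. Levels were 15.76 ± 0.33 for ZNF865, 15.64 ± 0.27 for GPR155 and 15.50 ± 0.30 for FAM74A4. Another detected probe of ZNF865 stood at 4.61, and another of GPR155 at 4.49. A second kind of bright probe was rich in C and G, as in the first 30 bases of these 2, named by the array after long noncoding transcripts.
lnc-WWC2-1: ggtccggcctccccgtccccgccccgccct
lnc-BEGAIN-1: gcccctcccccgcctccccagccatctgtg
They stood at 15.67 and 15.56 with a G+C content of 85.0% and 76.7%.

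Across the array, 123 probes held an Alu motif and 415 others had at least 70% G+C. Of the Alu probes 64.2% were detected, of the G+C-rich probes 77.8% and of all other probes 38.6%. A level of 12 or more was reached by 25.3% of the detected Alu probes, by 26.6% of the detected G+C-rich probes and by 5.82% of the others. The median SD over the arrays was 0.180, 0.301 and 0.120 in that order. With both kinds left out, an alternative chosen after seeing the data, 13982 genes were detected, 14 of the first 20 genes were shared with the full ranking, and NMB was still the brightest. The 6 genes that entered the first 20 were RPS18, RPS25, RPL38 and RPL13 of the ribosome, PTK6 (a tyrosine kinase of epithelia) at 15.37 and 1 other. The part of repeat sequence and base composition in the level of any 1 gene was not tested.

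**Figure D1:**
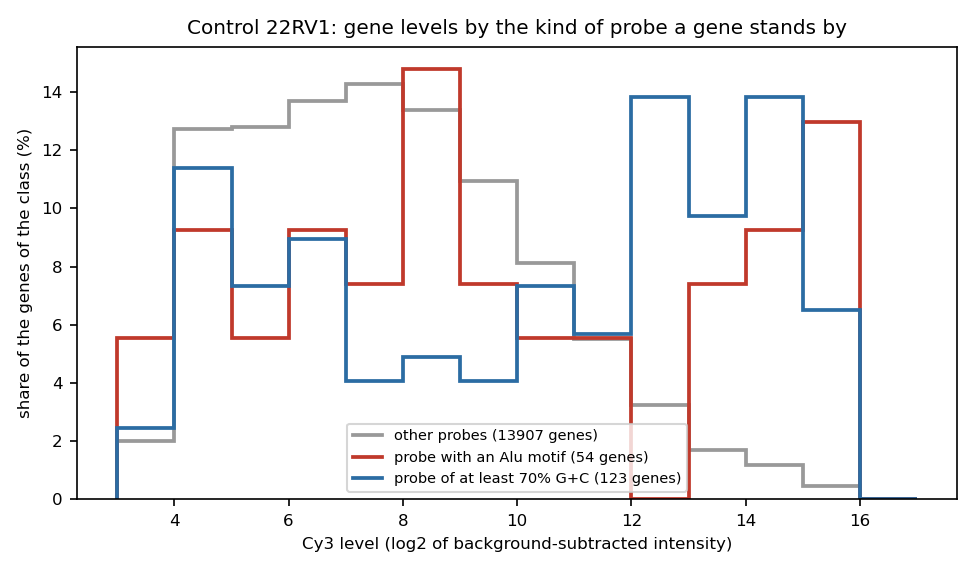
Share of the detected genes in each step of Cy3 level (log2 intensity), drawn apart for genes that stand by an Alu motif probe, by a probe of at least 70% G+C, or by any other probe. Genes of the 2 special kinds form a second hump above a level of 12, where few of the other genes lie.

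Different probes of 1 gene often disagreed. For 3400 genes with several detected probes, the range between probes had a median of 2.18 and reached 11.59. A gene's level is therefore that of its brightest probe, and the lowest detected probe is given where it changes the picture. At the detection threshold, the dimmest detected probe had a level of 3.49. The 1182 probes that were detected on 5 of the 6 arrays had a median of 3.8 and a highest level of 12.39.

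By kind of gene, 67.7% of protein-coding genes were detected, with a median level of 7.81, against 30.1% of long noncoding RNA genes, with a median of 5.75. The labels report total RNA tailed with poly(A) before labelling, so RNAs without a natural tail could also be copied. Small nucleolar RNA genes, which guide changes to ribosomal RNA, were detected for 130 of 286 symbols (45.5%), led by SNORD3B-1 at 12.44.

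Luminal prostate genes were detected for 27 of 31 (87.1%), with a median of 9.85 that lies above the upper quartile of all genes. HOXB13, a homeobox factor of the prostate, led the transcription factors at 13.57 ± 0.11, with arrays from 13.37 through a median of 13.59 to 13.67. FOXA1, which opens chromatin, read 10.67, 10.81 and 10.85 (10.79 ± 0.07). HOXB13 was in the top 2.45% of detected genes. FOXA1 also had a dimmer detected probe, at 4.16. GATA3, another factor of luminal epithelia, was near the bottom at 5.19 ± 0.17.

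By their brightest probes, the luminal keratins were among the brightest structural genes. KRT18 stood at 13.98 ± 0.29, KRT8 at 13.32 ± 0.10 and KRT19 at 12.41 ± 0.13. The other probes of KRT8 were detected too, but read only 8.36 and 7.93. Both adhesion genes of the list, CDH1 (E-cadherin) at 11.85 ± 0.06 and EPCAM at 11.82 ± 0.06, were bright too. Of 14 secreted or surface products 12 were detected. STEAP1, a metalloreductase, stood at 12.77 ± 0.12, SLC45A3 (prostein) at 11.77 ± 0.13 and FOLH1 (prostate-specific membrane antigen) at 10.92 ± 0.07. At the dim end were ACP3, prostatic acid phosphatase, at 4.82 ± 0.20 and PSCA at 4.31 ± 0.09. MSMB, the beta-microseminoprotein of seminal fluid, and TRPM8, a cation channel, were not detected on any array, nor were the noncoding RNAs PCA3 and PCAT1.

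Basal markers were detected for 7 of 14, against 61.0% of all genes, with a median of 4.84. TP63, the defining factor of basal cells, and the basal keratins KRT5 and KRT17 were detected on none of the 6 arrays, and KRT14 on 1. The bright exception was CD44, a hyaluronan receptor, at 10.38 ± 0.09, whose dimmer probe read 4.92. The other 6 detected members ran from NOTCH4 at 4.06 ± 0.22 to LAMB3 at 6.77 ± 0.10. Among them was the basal keratin KRT15 at 5.26 ± 0.17. Against the labelled tissue, the line thus showed luminal markers, while TP63, KRT5 and KRT17 were not detected and KRT15 was, at a low level.

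HOX genes, which lay down position along the body axis, were looked up by cluster after the ranking had been seen. Besides HOXB13, the only HOX gene above 13 was HOXA10 at 13.30 ± 0.68, a wider spread over the arrays than the 0.11 of HOXB13. Of 11 HOXA genes 9 were detected, of 10 HOXB genes 8, and of 9 HOXC genes 7, led by HOXC6 at 9.65 and HOXC9 at 9.19. Of 9 HOXD genes with a probe 0 were detected on all 6 arrays. HOXD9 was above background on 3 arrays and HOXD11 on 1.

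**Figure D2:**
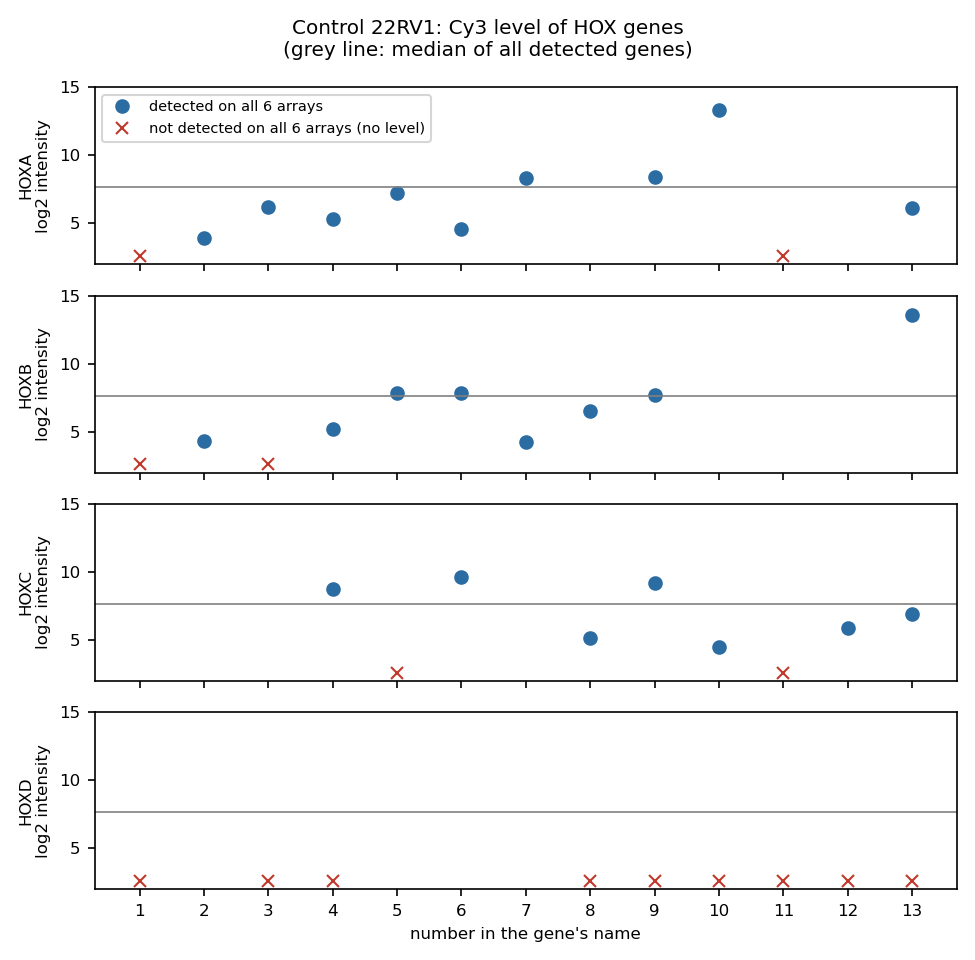
Cy3 level (log2 intensity, mean of 6 arrays) of each HOX gene with a probe, by cluster (panels) and by the number in its name (horizontal axis). Dots are detected genes and crosses are genes not detected on all 6 arrays; HOXB13 and HOXA10 stand far above the grey median line and the HOXD panel holds only crosses.

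Genes of steroid receptors and their helpers were detected for 25 of 29 (86.2%), with a median of 8.89. Among the receptors, NR3C1 (glucocorticoid receptor) stood at 8.08 ± 0.08 and NR3C2 (mineralocorticoid receptor) at 7.0 ± 0.11. ESR1 was just above the threshold at 3.76 ± 0.33, and PGR and ESR2 were not detected on any array.

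All 9 chaperones of steroid receptors were detected, with a median of 11.09. HSP90AA1, the inducible HSP90, led at 14.34 ± 0.10, and STUB1, a chaperone-bound ubiquitin ligase, stood at 12.47 ± 0.08. The dimmest detected probe of HSP90AA1 read 9.06. The coactivators were spread more widely: NCOA4 stood at 12.14 ± 0.13, while EP300 was at 4.05 ± 0.18 and NCOA2 was not detected on any array. A dimmer detected probe of NCOA4 read 7.47. Of 5 corepressors 4 were detected, with NR2F2 at 9.01 ± 0.13 and NCOR1 at 8.19 ± 0.15.

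Among genes known to respond to androgen, 23 of 30 were detected (76.7%, against 61.0% of all genes), with a median of 8.13. CENPN, a centromere protein, stood at 12.88 ± 0.07, ELL2, an elongation factor, at 12.87 ± 0.03, and PMEPA1, a membrane adaptor, at 12.01 ± 0.14. FKBP5, a co-chaperone of steroid receptors that androgen induces, read 10.97, 11.08 and 11.22 as lowest, median and highest (11.09 ± 0.08). The other probe of FKBP5 was not detected on any array. TMPRSS2, a surface protease, was at 8.65 ± 0.13, with the miR-421 replicate 1 array lowest at 8.38. The dimmest detected members were GNMT at 4.58 ± 0.20 and CHRNA2 at 4.31 ± 0.23. STEAP4, ABCC4, TRPM8 and ADAM7 were not detected on any array.

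The 15 kallikrein proteases sit side by side on chromosome 19, and 7 of them were detected (46.7%). The brightest was KLK1, tissue kallikrein, at 11.86 ± 0.12. KLK3, which encodes prostate-specific antigen, read 9.65 on its lowest array, 9.74 in the median and 9.93 on its highest (9.76 ± 0.10). Its other probe read 4.31, so the call of a gene in the top 22.9% rests on the brighter one. KLK11 stood at 9.14 ± 0.06, KLK4 at 7.49 ± 0.10, KLK2 at 6.58 ± 0.10, KLK8 at 6.08 ± 0.14 and KLK15 at 5.28 ± 0.12. KLK5, KLK6, KLK7, KLK10, KLK12 and KLK13, known mostly from skin and other epithelia, were not detected on any array. Under the looser flag of the image software for a positive and significant signal, 11 of the 15 were detected.

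Steroid enzymes were detected for 19 of 36 with a probe (52.8%). AKR1C3, which makes testosterone from weaker androgens, read 11.65, 11.82 and 11.86 (11.79 ± 0.08), in the top 8.02% of genes. HSD17B10 stood at 11.59 ± 0.08 and CYB5A, a cofactor of steroid synthesis, at 11.52 ± 0.05. POR, the electron donor of the P450 enzymes, gave the highest level of the list at 14.51 ± 0.54, but by a probe rich in G and C, and its other detected probe read 8.17. SRD5A1, which reduces testosterone to dihydrotestosterone, was dim at 5.76 ± 0.14, and its relative SRD5A2 was not detected on any array.

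Enzymes of steroid synthesis from cholesterol were mostly below detection. STAR, CYP19A1 (aromatase), HSD3B1 and HSD3B2 were detected on none of the arrays, CYP11A1 was detected on 5, and CYP17A1 read 4.57 ± 0.27. Of the 9 conjugating or releasing enzymes with a probe, 3 were detected: UGT2B10 at 6.10 ± 0.29, SULT2B1 at 6.09 ± 0.14 and UGT2B15 at 4.71 ± 0.12. UGT2B17 and AKR1C2 were not analysed here, as no probe carried these symbols.

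SPINK1 was one of the brightest genes of the line. It read 13.82 on its lowest array, 13.88 in the median and 14.04 on its highest, a mean of 13.90 ± 0.08 in the top 1.98% of detected genes. The arrays did not separate by set for SPINK1: the miR-338-5p arrays minus the miR-421 arrays gave -0.08 ± 0.08 (SE), with an adjusted p of 0.74 in limma. This level is that of the control line.

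Of the 69 intestinal genes, SPINK1 included, 26 were detected (37.7%, against 61.0% of all genes), with a median of 6.4. RNF43, a Wnt pathway ubiquitin ligase, stood at 10.20 ± 0.06 and KLF5, a factor of crypt epithelium, at 9.10 ± 0.13. VIL1, the villin of the brush border, read 8.44, 8.58 and 8.62 (8.56 ± 0.07). PHGR1, a gut epithelial transcript, stood at 8.59 ± 0.10, GATA6 at 7.89 ± 0.08 and LGALS4, a gut galectin, at 7.36 ± 0.09.

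Defining factors of the gut were not detected. CDX2 and HNF4A were detected on none of the 6 arrays, GATA4 on 1 and HNF4G on 5. CDX1 stood at 6.95 ± 0.19. The absorptive genes FABP1, FABP2, SI, KRT20 and APOB were not detected on any array, nor were the stem cell genes LGR5 and OLFM4 or the surface antigens CEACAM5 and CEACAM6. Secretory genes were near the threshold where detected, from ZG16 at 3.83 ± 0.21 to TFF1 at 5.55 ± 0.10, apart from TFF2. TFF2, a trefoil peptide, read 12.18 on the pool array and between 6.19 and 6.36 on the other 5, which lowers its mean from 7.25 to 6.26 without that array.

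Liver genes were detected for 10 of 30 with a probe (33.3%), with a median of 5.07. ALB, serum albumin, stood apart from the rest: it read 11.08, 11.23 and 11.41 (11.25 ± 0.13), in the top 10.9% of genes. Its probe is split in the genome (outer ends at chr4:74285342-74286015, plus strand, hg19). AMBP, a precursor of a trypsin inhibitor, followed at 7.83 ± 0.07, and the other 8 lay between RBP4 at 3.91 ± 0.23 and CPS1 at 5.82 ± 0.12. AFP, the fibrinogen genes FGA, FGB and FGG, TF (transferrin) and the P450 gene CYP3A4 were not detected on any array.

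The albumin promoter holds a motif common in promoters of liver genes close to its start. The window lies at chr4:73404186-73404271 on GRCh38.p14 (plus strand, RefSeq), with the motif, GTTAAT, in capitals at position -61. It was searched on both strands of the 250 bases before and 50 after each start.
ALB promoter: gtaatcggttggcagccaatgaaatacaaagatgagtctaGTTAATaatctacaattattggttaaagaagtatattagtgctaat
GTTAAT was found in 6.89% of the 27305 promoters and in 3.67% of those of detected genes. It was held by 9 of 22 liver genes with a promoter in the table (40.9%). Of those 22, 8 were detected, and 2 of the 8 held it, ALB and APOH. Of 39 intestinal genes 9 held it (23.1%), among them CDX2, FABP1, SI and OLFM4, which were not detected. SPINK1 did not hold these letters in its window, and a match is a description and not a bound site.

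**Figure D3:**
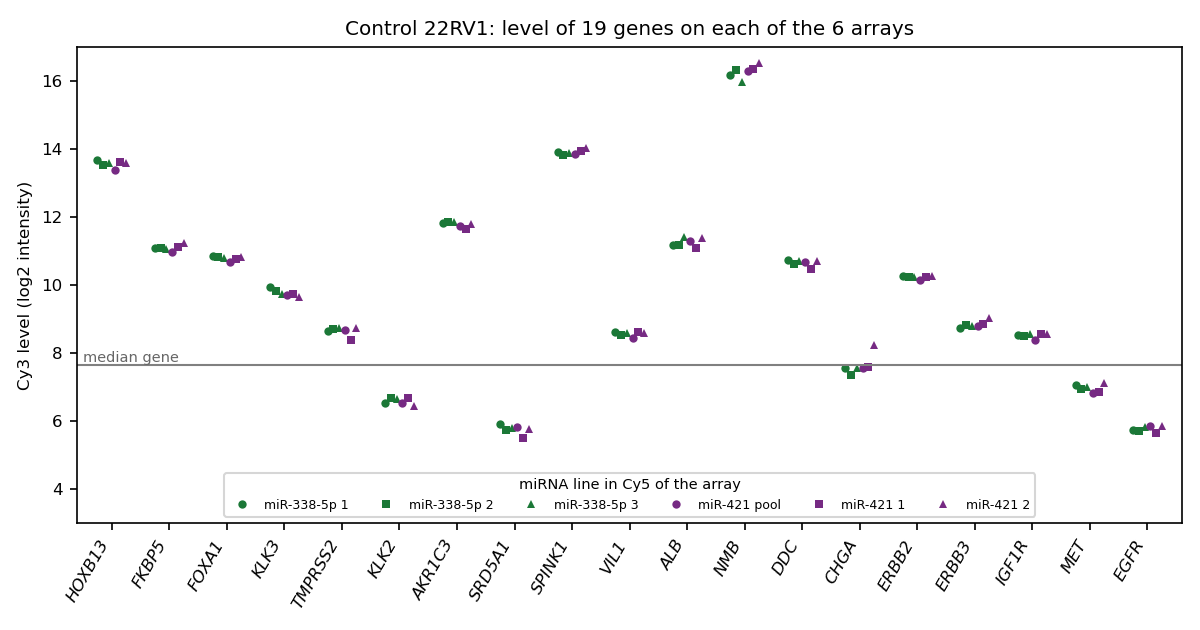
Cy3 level (log2 intensity) of 19 genes on each of the 6 arrays. Colour gives the miRNA line in the array's Cy5 channel and the symbol its replicate; for nearly all genes the 6 points lie on top of each other, from NMB near 16.27 down to EGFR and SRD5A1 near 5.77.

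Neuroendocrine genes gave a mixed picture, with 16 of 32 detected and a median of 7.65. NMB, the brightest gene of all, belongs to this list, but its receptor NMBR, its relative GRP and the GRP receptor GRPR were not detected on any array. DDC, which makes dopamine and serotonin, stood at 10.65 ± 0.10, ENO2, neuronal enolase, at 9.93 ± 0.12 and SNAP25, a vesicle fusion protein, at 9.27 ± 0.06. The other probe of DDC was not detected on any array. CHGA, chromogranin A, read 7.36, 7.55 and 8.23 (7.64 ± 0.30), with miR-421 replicate 2 as its highest array. SYP, synaptophysin, was dim at 5.38 ± 0.20. The defining factors INSM1 and NEUROD1 were detected on none of the arrays. SOX2 stood at 4.60 ± 0.18 and ONECUT2, a factor of neuroendocrine prostate cancer, at 7.68 ± 0.14.

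Genes of stroma and blood had low medians where detected. Of 17 mesenchymal genes 9 were detected (52.9%, against 61.0% of all genes), with a median of 5.8. They were led by VIM, vimentin, at 9.53 ± 0.16 and CDH2, N-cadherin, at 7.22 ± 0.10. A dimmer detected probe of CDH2 read 3.89. FN1, ZEB1, ZEB2, COL1A2, COL3A1 and FAP were not detected on any array, and COL1A1 read 4.44 ± 0.13. Of 18 leukocyte, endothelial and red cell genes with a probe 9 were detected, with a median of 5.03 and 0 above the upper quartile of all genes. The highest of this list was HBG1, fetal haemoglobin, at 7.04 ± 0.10, and PTPRC (CD45) read 5.03 ± 0.31. PECAM1 was not detected on any array. Outside the list, and looked up after the values were seen, HBA2, an alpha globin, stood at 12.16 ± 0.08 and CD4, a T cell antigen, at 12.94 ± 0.45. All 3 probes of HBA2 were detected, but only 1 of the 2 probes of CD4.

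Nearly all genes of energy metabolism were detected. Of 26 glycolysis and lactate genes 25 were detected (96.2%), with a median of 11.61, and 17 were above the upper quartile of all genes. LDHB, a lactate dehydrogenase, read 14.89, 15.09 and 15.25 (15.09 ± 0.12), and its relative LDHA stood at 12.47 ± 0.11. GAPDH stood at 14.10 ± 0.09 and TPI1, triose phosphate isomerase, at 13.56 ± 0.10. The lactate exporter SLC16A3 stood at 12.47 ± 0.07. SLC16A1 was dimmer at 6.72 ± 0.12, PFKFB4 dimmer still at 5.99 ± 0.10, and the neuronal glucose transporter SLC2A3 was not detected on any array.

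All 13 genes of the citrate cycle were detected, with a median of 11.33. MDH1, a malate dehydrogenase, stood at 14.01 ± 0.11, CS, citrate synthase, at 13.93 ± 0.12 and MDH2 at 13.36 ± 0.08. SDHA, a subunit of succinate dehydrogenase, stood at 12.81 ± 0.07. Zinc importers were lower: SLC39A1 stood at 9.36 ± 0.10 and SLC39A2 at 3.87 ± 0.24. OGDH was the dimmest cycle gene at 4.17 ± 0.25.

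Lipid synthesis genes were detected for 31 of 33 (93.9%), with a median of 9.24. FASN, fatty acid synthase, read 11.81, 11.84 and 12.07 (11.89 ± 0.10), in the top 7.46% of genes. FDPS, which makes farnesyl diphosphate, stood at 12.79 ± 0.06 and SREBF1, the master regulator, at 12.48 ± 0.20, with a dimmer probe at 7.24. FDFT1 stood at 11.70 ± 0.06. DHCR7, the last enzyme of cholesterol synthesis, had a spread of 0.91, with the pool array at 13.27 against a median of 11.06. The lowest were ELOVL6 at 7.34 ± 0.09 and INSIG2 at 5.26 ± 0.17.

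Arginine and polyamine genes were detected for 17 of 21 (81.0%). ASS1, which makes the precursor of arginine from citrulline, read 13.08, 13.25 and 13.36 (13.24 ± 0.09), and its partner ASL stood at 8.37 ± 0.08. All 10 polyamine genes were detected, with a median of 10.44. OAZ1, the antizyme that degrades ornithine decarboxylase, stood at 15.07 ± 0.16, AMD1 at 13.76 ± 0.07 and ODC1, ornithine decarboxylase itself, at 13.11 ± 0.11. SMOX was the dimmest at 5.49 ± 0.12. The urea cycle genes ARG1 and OTC were not detected on any array, while NOS3, a nitric oxide synthase of endothelium, stood at 11.88 ± 0.05.

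Serine and folate genes were detected for 18 of 20 (90.0%), with a median of 10.80. All 5 serine genes were among them. PHGDH, the first enzyme of serine synthesis, read 10.75, 10.80 and 10.90 (10.82 ± 0.06), PSAT1 stood at 11.53 ± 0.15 and SHMT2, the mitochondrial serine hydroxymethyltransferase, at 13.22 ± 0.11. CBS, which feeds homocysteine into cysteine, stood at 12.82 ± 0.07 and TYMS, thymidylate synthase, at 12.61 ± 0.11. ALDH1L2, a mitochondrial folate enzyme, was the dimmest at 4.40 ± 0.38.

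Growth factor receptors were mostly dim: 30 of 52 were detected (57.7%), with a median of 6.04, and 2 were above the upper quartile. These were FGFR3 at 10.67 ± 0.10, whose dimmer probe read 4.94, and ERBB2. ERBB2, the preferred partner of the EGF receptor family, read 10.14, 10.24 and 10.27 (10.22 ± 0.05). Its dimmer detected probe read 3.96, so its place above the upper quartile rests on the brighter one. ERBB3 read 8.74, 8.81 and 9.03 (8.84 ± 0.10), with a dimmer detected probe at 5.79. EGFR itself read 5.64, 5.77 and 5.85 (5.77 ± 0.08), below the lower quartile of all genes. DDR1, a collagen receptor, stood at 9.13 ± 0.09 and IGF1R at 8.51 ± 0.07. MET, the receptor of HGF, read 6.81, 6.97 and 7.11 (6.96 ± 0.12). RET was the dimmest at 4.0 ± 0.26. PDGFRA, KDR, FLT1, TGFBR1 and TGFBR3 were not detected on any array.

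Of the ligands, 28 of 58 were detected (48.3%), with a median of 6.98. MDK, the heparin-binding midkine, led at 13.54 ± 0.10, followed by IGFBP2, which binds insulin-like growth factors, at 13.37 ± 0.06, GDF15, a stress cytokine, at 13.16 ± 0.20 and GRN, progranulin, at 12.78 ± 0.11. HGF, usually a product of stroma, read 10.83, 11.05 and 11.10 (10.99 ± 0.12), and its other probe stood at 9.48. Of 11 EGF family ligands 2 were detected, TGFA at 7.54 ± 0.17 and AREG at 6.39 ± 0.10. EGF, EREG and NRG1 were not detected on any array. IGF1 stood at 5.13 ± 0.11 and IGF2 was detected on 5 arrays. The dimmest were CCN2 at 4.12 ± 0.21 and FGF1 at 4.04 ± 0.34.

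**Figure D4:**
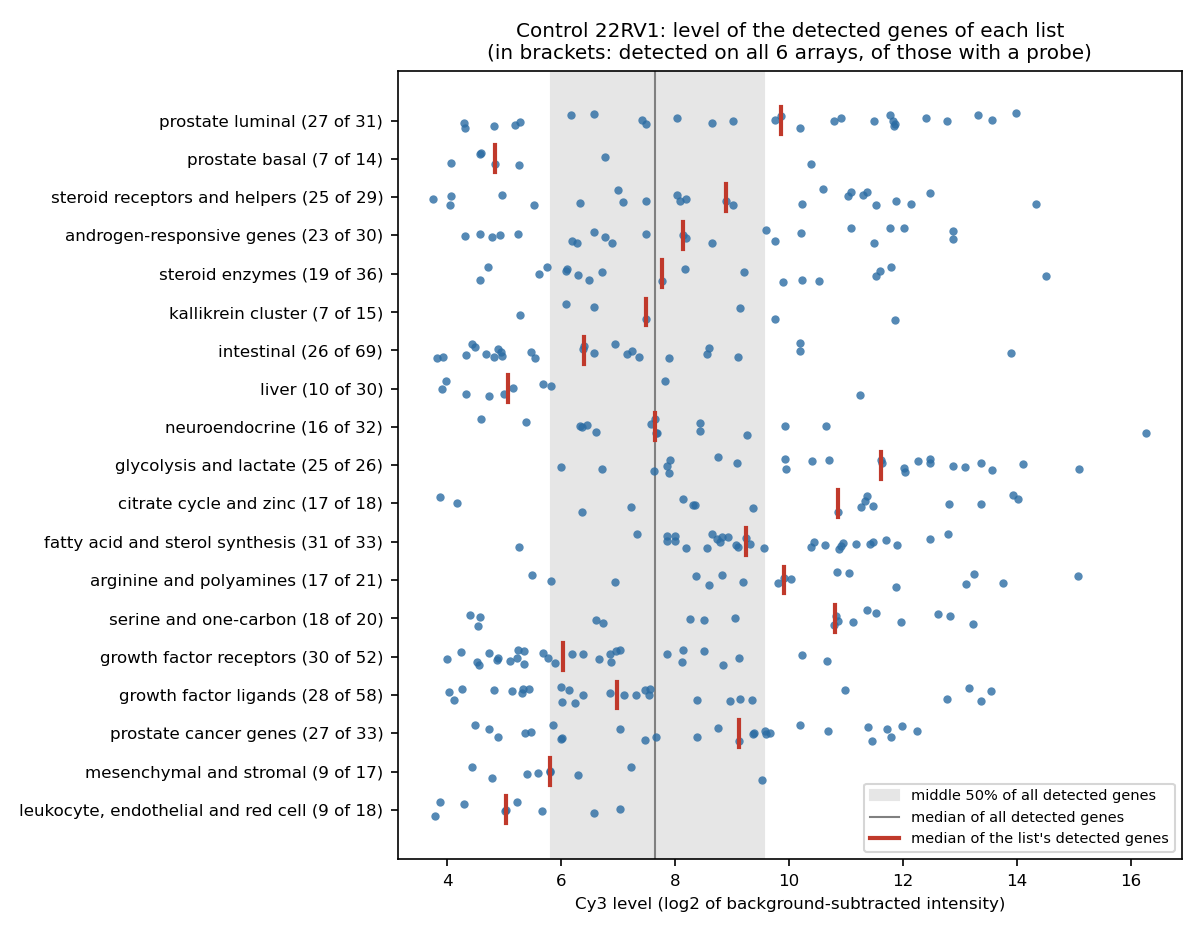
Level (log2 intensity) of every detected gene of each list (dots), with the list's median (red line) over the median and middle 50% of all 14084 detected genes (grey). Glycolysis, citrate cycle and serine lists lie to the right of the grey band's centre, with medians from 10.80 to 11.61; liver, basal and blood lists lie to the left, with medians from 4.84 to 5.07.

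Genes known from prostate cancer were detected for 27 of 33 (81.8%), with a median of 9.13. MYC, a growth-promoting factor, read 12.19, 12.24 and 12.28 (12.24 ± 0.03), but its other probe was detected on only 1 array. MTDH, a membrane oncoprotein, read 11.83, 11.99 and 12.09 (11.99 ± 0.09). EZH2, the polycomb methyltransferase named in the title of the series, read 10.53, 10.71 and 10.78 (10.69 ± 0.10), in the top 14.7% of genes. CCND1, cyclin D, stood at 11.45 ± 0.12. The ETS genes ERG and FLI1 were not detected on any array, and ETV1, ETV4 and ETV5 lay between 4.74 and 6.02.

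Tumour suppressor genes were detected for 11 of 14. CDKN2A, a cell cycle inhibitor, was bright at 11.72 ± 0.03, and RB1 stood at 9.60 ± 0.06. CDKN1A, another such inhibitor, was dim at 4.49 ± 0.20. All 5 mismatch repair genes were detected, among them MSH6 at 11.38 ± 0.07, PMS2 at 8.75 ± 0.10 and MSH3 at 5.47 ± 0.29.

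Cy3 held control RNA on every array, and its signal was compared between the 3 arrays that carried the miR-338-5p line and the 3 that carried the miR-421 line. Of 22636 detected probes 2 differed (0.00884%) at an adjusted p under 0.05 in limma, and both were brighter on the miR-421 arrays. SOD3, a secreted superoxide dismutase, read 7.23, 7.12 and 7.24 on the miR-338-5p arrays against 8.49, 8.51 and 8.38 on the miR-421 arrays. The difference was -1.26 ± 0.07 (SE, adjusted p = 0.0042, limma, n = 3 each). The noncoding RNA LOC101927358 read 3.78, 3.67 and 4.04 against 5.91, 5.88 and 5.94, a difference of -2.08 ± 0.10 (SE, adjusted p = 0.0025, limma). The sets did not overlap for either probe, but both probes were picked by this test, so that adds no support. Both calls were lost when the pool array or miR-421 replicate 1 was left out, with 0 probes called in each case and 3416 and 2022 probes at an unadjusted p under 0.05. The difference of SOD3 was -1.24 (adjusted p = 0.088, limma) and -1.23 (adjusted p = 0.069, limma) in those fits, close to its value with all arrays.

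Without miR-421 replicate 2, in contrast, 586 probes were called, 571 of them brighter on the miR-421 arrays. Of the G+C-rich probes 28.5% were among these calls, of the Alu probes 3.8% and of the others 2.21%. Base composition thus moved with the Cy3 difference of the pool array and miR-421 replicate 1, and its part in the calls was not tested. Of the 357 detected genes of the lists above, 0 differed between the sets in limma. An unadjusted p under 0.05 (limma) was found for 31 of them, against 2527 of all 22636 detected probes. With a trended and robust variance 0 of the 357 genes were called, against 24 of all probes. Differences of the 357 genes ran from -1.99 (TFF2, on the pool array's value) to 0.48 (KRT18). Without miR-421 replicate 2, 4 of the 357 genes were called, POR, PFKL, FGF1 and MSH3, against 586 of all 22636 probes. Of the 357 genes, 333 had an SD under 0.25 over the 6 arrays.

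The 5 genes of largest spread owed it to single arrays. CCDC191 read 11.59 on the pool array and 4.62 to 5.11 on the other 5. TFF2 is given above, and INSL3, an insulin-like hormone, read 10.88 on the pool array and 5.06 to 5.69 elsewhere. ZSWIM3 read 8.58 on the pool array against 4.87 to 5.51. SERPINE2, a protease inhibitor, was high on miR-338-5p replicate 2 instead, at 9.22 against 5.60 to 6.14. A further group, chosen after its values were seen, was high on the pool array and on miR-421 replicate 1 together. TYROBP, an adaptor of myeloid cells, read 10.28 and 9.77 there and 7.32 to 8.24 on the other 4, and CSF3R, the receptor of a granulocyte growth factor, read 8.66 and 8.34 against 6.02 to 6.19. In all, 18 genes had an SD of 1 or more. Some of these split by set, also seen after the fact. ACTR3BP5 read 5.85 to 6.19 on the miR-338-5p arrays and 7.79 to 8.62 on the miR-421 arrays. Its difference was -2.2 ± 0.2 (SE, adjusted p = 0.069, limma), so it was not called. PYY2 read 6.57 to 7.39 against 8.23 to 9.48 and was not called either.

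**Figure D5:**
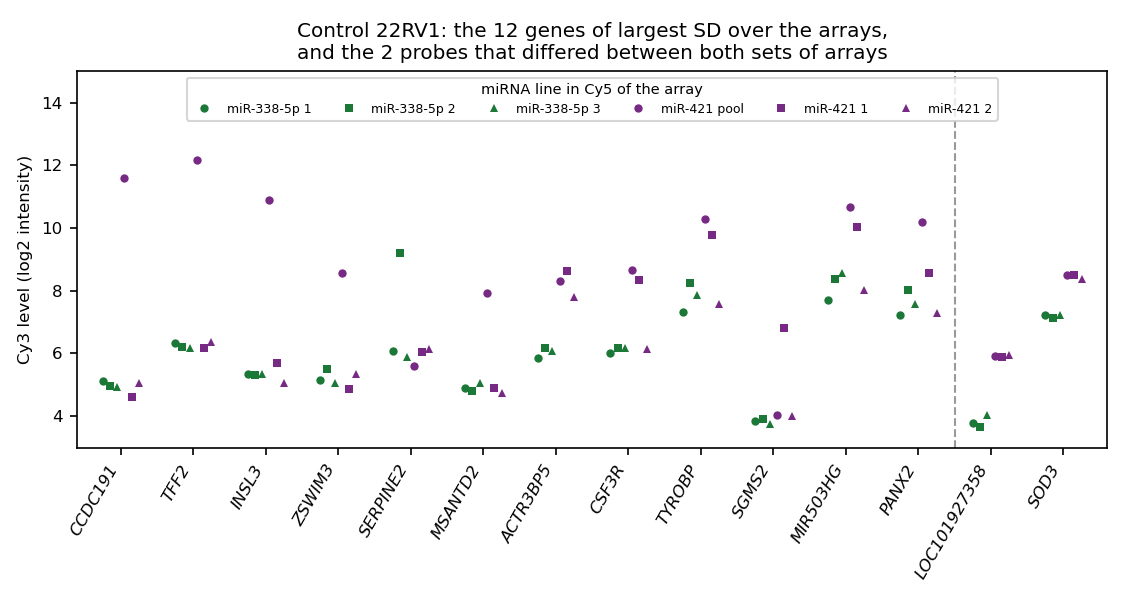
Cy3 level (log2 intensity) on each of the 6 arrays for the 12 genes of largest SD (left of the dashed line) and for the 2 probes past the threshold between both sets (right). CCDC191, TFF2 and INSL3 each show 1 high point, from the pool array, whereas LOC101927358 and SOD3 show 3 points against 3.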

How the data were processed

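The deposited intensity values were, per the file headers, the mean Cy3 brightness of a spot and its median local background, read by the authors with Feature Extraction 11.5.1.1 and not normalized. The headers place the probes on hg19. Each array held 60901 gene spots, making 58201 probes of 60 bases. Spots flagged as outliers were dropped and the remaining spots of a probe averaged. A probe counted as detected when its used spots were well above background on all 6 arrays, which held for 22636 probes, 18262 of them with a symbol. The level was log2(mean minus background), each array shifted so that its median over these probes equals the mean of the 6 medians. Negative control spots had a 95th percentile of 1.91 to 2.40 on this log2 scale. The number of arrays limits the precision.

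Symbols are those of the array, or the current RefSeq symbol (GRCh38.p14) where an accession matched, which held for 31104 probes. R 4.3.3 and limma 3.58.1 (lmFit, eBayes, Benjamini-Hochberg adjustment, two-sided) compared both sets of arrays. On simulated data with 200 of 22636 probes shifted by 1, the fit recovered 87.5% with 11 false calls. The simulated noise was independent between probes, so these rates do not cover deviations that many probes of an array share. All arrays were on 1 slide. Same-numbered arrays of both sets deviated with r = -0.038 and -0.126, so the numbers do not pair them.

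The members, the gene lists and the tests were chosen with earlier results of these data known. Named by rule were the 20 brightest genes, 26 genes always included, the 3 brightest and 2 dimmest detected members of each list, the 5 genes of largest SD and the probes past the threshold. Other list members were chosen after their values were seen. The alternatives covered detection, background, scaling, probes per gene, the variance model, a replicate block and each array left out. Some named genes and sequences are not reported here.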

Additional observations from a re-analysis of the deposited data

Results flagged for a closer look

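For each of 132 named and detected genes, the highest and the lowest of the 6 arrays was set against the other 5, and 16 values lay far from the rest by Dixon's criterion. Chance gives about 1 in 20 for genes not picked by their spread. However, 5 of the 132 genes were named for the largest SD, and all 5 were among the 16, 4 of them on the pool array. Of the other 127 genes 11 had such a value, 3 on the pool array. Of the 16, 7 were on the pool array, 4 on miR-421 replicate 1, 2 on miR-421 replicate 2, 2 on miR-338-5p replicate 2, 1 on miR-338-5p replicate 1 and 0 on miR-338-5p replicate 3.

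High on the pool array were TFF2 (12.18, others 6.19 to 6.36), CCDC191 (11.59, others 4.62 to 5.11), INSL3 (10.88, others 5.06 to 5.69) and ZSWIM3 (8.58, others 4.87 to 5.51). Low there by small steps were PMEPA1 (11.75, others 12.01 to 12.14), STUB1 (12.31, others 12.47 to 12.54) and IGF1R (8.39, others 8.51 to 8.57).

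On miR-421 replicate 1, SLC66A1, which stands by an Alu motif probe, was high at 16.59 (others 15.68 to 15.95). TMPRSS2 (8.38, others 8.65 to 8.74), DDC (10.46, others 10.62 to 10.72) and CDH2 (7.03, others 7.22 to 7.32) were low on the same array. On miR-421 replicate 2, EP300 (4.40, others 3.86 to 4.03) and DDR1 (9.31, others 9.08 to 9.14) were high. On miR-338-5p replicate 2, SERPINE2 was high at 9.22 (others 5.60 to 6.14) and CDKN1A low at 4.09 (others 4.47 to 4.62). On miR-338-5p replicate 1, ZG16 was low at 3.44 (others 3.81 to 4.03).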

How the results depend on the processing

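Counts of detected probes (22636) and genes (14084) stayed within 1.5 times under every alternative run: 22640 to 29602 probes and 13982 to 16472 genes, the highest under the looser signal flag. With 1 array left out they were 22664 to 23041 probes and 14093 to 14240 genes. Of the 19 lists, 1 moved by more than 1.5 times under the looser flag, the kallikreins. The number of probes that differed between both sets of arrays was 2, and 6 without background subtraction, 5 without scaling, 24 with a trended and robust variance and 0 to 586 with 1 array left out. With the replicate block it was 0 (1739 at an unadjusted p under 0.05, limma), although the numbers do not pair the arrays. The cause was not tested. The median SD over the arrays was 0.121 over probes, 0.207 without scaling and 0.108 to 0.125 with 1 array left out. SOD3 kept its direction in every fit, with an adjusted p from 9.1e-09 to 0.65 (limma). Levels of the 132 named genes, set to 1 common median, moved by less than their SD under other scalings, with outlier spots kept and with any array left out. They moved by more for 120 genes with normexp, for 105 without subtraction, for 67 with the processed signal and for 31 by the median of a gene's probes.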
